A study of Oncorhynchus mykiss with 8 samples.

Results

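Liver mRNA of small and large rainbow trout was compared at 10 probes named for enzymes of methionine, sarcosine and folate one-carbon metabolism, out of 43603 probes on a salmonid array. A probe was taken when its name in the study's lists of liver or white muscle genes contained formiminotransferase, sarcosine, methionine adenosyltransferase, S-adenosylmethionine, betaine, adenosylhomocysteinase, glycine N-methyltransferase, tetrahydrofolate or cystathionine. The liver lists of the Sept. lot name 4 of the 10, and the other 6 come from lists of white muscle of the same fish. All 10 had a value on all 8 arrays. The study set small against large fish in 2 lots of Lyndon strain trout, from parents that spawned in Sept. and in Dec. All were juveniles of both sexes, reared at one station, and sampled at the same age in the second year of life, at the onset of winter for the Sept. lot and toward spring for the Dec. lot. Each lot was a set of half-sib families with 1 sire, and the lots shared neither sire nor dams. Each pool held liver mRNA of 5 fish of one size, and every array set such a pool of small fish against a pool of large fish from its own lot. A lot had 2 of these pool pairs. Each was measured once with the small fish in Alexa Fluor 647 and once with them in Alexa Fluor 555, and the values were averaged, so a lot has n = 2 pool pairs. Since the lots differ in season, in parents and in the fish themselves, these cannot be told apart.

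One-carbon metabolism moves single carbon groups between amino acids, folate and methyl acceptors. Methionine is activated to S-adenosylmethionine, the methyl donor of the cell, and what remains after a methyl transfer is cleaved to homocysteine. Homocysteine is either methylated back to methionine, with betaine or folate as the donor, or passed to cysteine by cystathionine beta-synthase. The liver runs most of this cycle in vertebrates, and it also breaks down sarcosine and histidine, whose carbon groups enter the folate pool. Folate enzymes such as methylenetetrahydrofolate dehydrogenase then carry these groups between oxidation states.

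Ratios are log2 values of small over large fish, so a negative value means a lower level in small fish. A ratio was called past the thresholds of the study at an unadjusted p of 0.05 or less in limma and a fold change of at least 1.2. In the Sept. lot 3 of the 10 one-carbon probes were past the thresholds, all lower in small fish, where 1.21% of all probes tested were past them in that direction and 2.72% in either direction. Those 3 were methionine adenosyltransferase alpha, the sarcosine probe A_05_P266337 and the formiminotransferase cyclodeaminase probe A_05_P252304. The first and second had been listed from these Sept. liver values, so their Sept. ratios are a description. In the Dec. lot 3 of 10 were past the thresholds and again all lower in small fish, against 2.75% of all probes in that direction and 4.84% in either. They were A_05_P266337, A_05_P252304 and cystathionine beta-synthase. The study's own Dec. liver lists hold none of them, so it did not call them there. The rule for the members also names A_05_P266337 and A_05_P252304 outright. As the members were chosen with earlier results of these data known, the Dec. calls are a description too. At a fold change of at least 1.5, or by the methods' t-test over the 4 Dec. arrays, 0 of the 10 were past in the Dec. lot. Over the mean of both lots 4 of 10 were past, all lower in small fish (2.10% of all probes in that direction, 3.59% in either). Methionine adenosyltransferase alpha and A_05_P266337, of these 4, had also been listed from the Sept. values that enter this mean. The mean is a description for all 4. No probe, one-carbon or other, had an adjusted p under 0.05 in any of these comparisons (0% of all probes in limma with Benjamini-Hochberg adjustment), and the smallest adjusted p among the 10 was 1.00 in the Sept. lot and 0.990 in the Dec. lot.

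**Figure D1:**
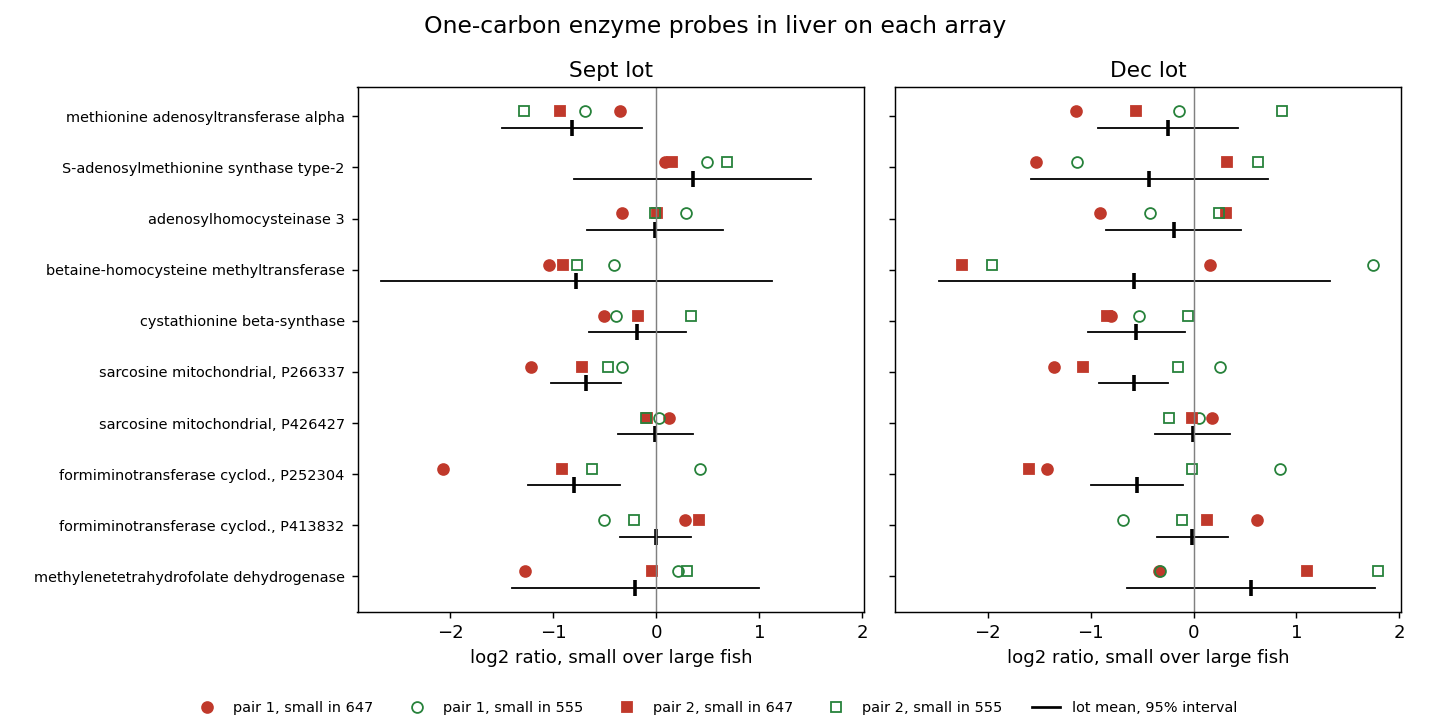
Log2 ratio of small over large fish for each of the 10 probes (rows) on each array, with the Sept. lot left and the Dec. lot right. Circles are pool pair 1 and squares pool pair 2, filled red symbols are arrays with small fish in Alexa Fluor 647 and open green symbols arrays with small fish in Alexa Fluor 555, and the black tick and line give the lot mean with its 95% interval from limma. The upper sarcosine probe lies below 0 on 7 of 8 arrays, and betaine-homocysteine methyltransferase is split by pool pair in the Dec. lot.

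The dye orientation touches every ratio below. Across all probes, arrays of the same orientation correlated at 0.0524 to 0.358 (12 pairs of arrays), whereas the 2 arrays of one pool pair, which carry the same RNA, correlated at -0.144 to 0.0570. Averaging the 2 orientations removes a probe's constant dye bias from the mean, but a pool pair then rests on 2 values that can lie far apart. The direction was taken as small over large on every array, since the mean of the 4 arrays of a lot has the sign of the listed side for 409 of 409 entries of the study's liver lists. As those lists were made from these ratios, they show only which direction the study used. With the sign turned on the arrays with small fish in Alexa Fluor 555, 1679 probes, none of them one-carbon, had an adjusted p under 0.05 in limma over both lots, against 0 as read here. Of 13 red blood cell probes, 9 were above 0 on all 4 Dec. arrays (4.64% of all probes) and 6 were below 0 on all 4 Sept. arrays (4.70% of all probes). They were found by name in the study's lists or by platform symbol, and those lists were made from size differences in these fish. These counts are thus a description and do not settle the direction. The paper also measured some liver genes of the Sept. fish by qPCR, hemoglobin subunit alpha among them. It reports that they bore out its array results, with the IGF-binding protein short of significance. Its qPCR did not cover the Dec. fish. Probes carry names of the best protein match of their salmon sequence, and related genes of trout may hybridize to one probe. A ratio gives no level, so neither the expression of an enzyme nor the tissue label can be checked by level here, and in pooled tissue a smaller number of cells and less RNA per cell cannot be told apart.

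Methionine adenosyltransferase makes S-adenosylmethionine from methionine and ATP. Its alpha probe (A_05_P425092) read -0.36 and -0.70 on the arrays of Sept. pool pair 1 and -0.94 and -1.29 on those of pool pair 2, small fish in Alexa Fluor 647 first. All 4 Sept. values lay below 0. The Sept. mean was -0.82 (SE 0.26, n = 2), a level 1.77-fold higher in large fish. In the Dec. lot the arrays read -1.14 and -0.14 for pool pair 1 and -0.55 and 0.86 for pool pair 2, so that the pool pairs lay on opposite sides of 0. The Dec. mean was -0.25 (SE 0.26), not past the thresholds, and the Sept. minus Dec. difference of -0.58 (SE 0.35, 95% interval -1.48 to 0.33) was not past them either. The 1 Dec. array above 0 was that of pool pair 2 with small fish in Alexa Fluor 555. Without Sept. pool pair 2 the Sept. mean of -0.53 was not past the thresholds. The array maker's annotation, as the study notes, gives this probe another name, so its identity is less sure than that of the others.

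A second probe for the same step, S-adenosylmethionine synthase isoform type-2 (A_05_P425317), had been listed as higher in small Sept. fish. It read 0.09, 0.49, 0.15 and 0.68 on the Sept. arrays, all above 0, with a mean of 0.35 (SE 0.44, n = 2) that was not past the thresholds in the fit over both lots. Its SE is wide because the Dec. pool pairs lay far apart, at -1.53 and -1.13 for pool pair 1 against 0.33 and 0.62 for pool pair 2. The Dec. mean was -0.43 (SE 0.44). The distance between the Dec. pool pairs, 1.81, was greater than that of 99.0% of all probes. With the Sept. lot fitted alone, the same Sept. mean of 0.35 passed the thresholds. This is a description, as the probe was listed from these values. Leaving out Dec. pool pair 1 or 2 comes to that same fit for the Sept. lot.

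Adenosylhomocysteinase cleaves S-adenosylhomocysteine, the product left by methyltransferases, and adenosylhomocysteinase 3 is a relative of it. The adenosylhomocysteinase 3 probe (A_05_P370477), listed for muscle of small Dec. fish, read -0.33, 0.28, 0.01 and -0.02 on the Sept. liver arrays and had a mean of -0.01 (SE 0.25). On the Dec. arrays it read -0.91 and -0.42 for pool pair 1, and 0.31 and 0.24 for pool pair 2. Both orientations of a pool pair had the same sign, and the 2 pool pairs did not overlap. The Dec. mean was -0.19 (SE 0.25), not past the thresholds.

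Betaine-homocysteine S-methyltransferase remethylates homocysteine with betaine and is an enzyme of the vertebrate liver. Its probe (A_05_P254689), listed for liver of large Sept. fish, read -1.04 and -0.41 in Sept. pool pair 1 and -0.90 and -0.77 in pool pair 2, all below 0, with a mean of -0.78 (SE 0.72, n = 2). On the Dec. arrays it read 0.16 and 1.75 in pool pair 1 and -2.25 and -1.96 in pool pair 2. The Dec. pool pairs therefore averaged 0.96 and -2.11, and their distance of 3.06 was greater than that of 99.9% of all probes. The Dec. mean of -0.57 (SE 0.72) describes neither pair, and the shared spread also keeps the Sept. mean from passing the thresholds. Fitted on the Sept. lot alone, the Sept. mean of -0.78 passed, again as a description of the values it was listed from. Leaving out either of the Dec. pool pairs comes to that same fit for the Sept. lot. This probe had the lowest mean over both lots of the 10, -0.68 (SE 0.49, 95% interval -1.93 to 0.58), and that mean was not past the thresholds.

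Cystathionine beta-synthase joins homocysteine to serine, the first step towards cysteine. Its probe (A_05_P269379) had been listed for muscle of large Dec. fish, and in liver it read -0.80 and -0.53 in Dec. pool pair 1 and -0.84 and -0.05 in pool pair 2. All 4 Dec. values were below 0, which held for no other member and for 3.41% of all probes. The Dec. mean was -0.56 (SE 0.18, 95% interval -1.03 to -0.09, n = 2), past the thresholds and 1.47-fold higher in large fish. The Sept. arrays read -0.51, -0.39, -0.18 and 0.34, with a mean of -0.19 (SE 0.18) that was not past the thresholds. The Sept. minus Dec. difference of 0.37 (SE 0.24, 95% interval -0.25 to 0.99) was not past them. Without Dec. pool pair 1 or without Dec. pool pair 2, the Dec. mean of -0.45 or -0.66 was no longer past the thresholds.

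Sarcosine, the N-methyl form of glycine, is oxidized in mitochondria, where its methyl group passes to folate. The lists give 2 probes the shortened name "sarcosine mitochondrial", without the enzyme's own word. The first (A_05_P266337) read -1.22 and -0.34 in Sept. pool pair 1 and -0.72 and -0.47 in pool pair 2, all below 0. On the Dec. arrays it read -1.36 and 0.26 in pool pair 1 and -1.07 and -0.15 in pool pair 2. All 4 pool pairs averaged below 0, at -0.78 and -0.59 in the Sept. lot and -0.55 and -0.61 in the Dec. lot. The Sept. mean was -0.69 (SE 0.13, n = 2), and without pool pair 1 it was -0.59 and not past the thresholds. The Dec. mean was -0.58 (SE 0.13, 95% interval -0.92 to -0.24, n = 2), past the thresholds. This is slightly less than 1.5-fold higher in large fish, so it did not pass at a fold change of at least 1.5. The Dec. lot was not used to list this probe. The rule for the members names it outright, though, with earlier results of these data known, so its Dec. ratio is a description. Of all probes tested, 2.39% had a lower Dec. mean. The Sept. minus Dec. difference was -0.10 (SE 0.18, 95% interval -0.56 to 0.35). Most of the lower ratio in each lot came from the arrays with small fish in Alexa Fluor 647. Their means were -0.97 in the Sept. lot and -1.22 in the Dec. lot, against -0.40 and 0.05 with small fish in Alexa Fluor 555. When the 8 arrays were fitted singly, with terms for dye and for shared pools, the Dec. mean of -0.58 was still past the thresholds. The correlation within a pool pair in that fit was 0.0382, so it treats arrays of the same pools as nearly independent.

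The second sarcosine probe (A_05_P426427), listed for muscle of small Dec. fish, stayed close to 0 in liver. It read 0.12, 0.02, -0.09 and -0.10 on the Sept. arrays and 0.18, 0.05, -0.02 and -0.24 on the Dec. arrays. Its means were -0.01 in both lots (SE 0.14 each). The first probe was lower than the second in all 4 pool pairs, with log2 differences of -0.85, -0.50, -0.67 and -0.49 and a mean of -0.62 ± 0.17 (SD, n = 4). The Sept. differences, given first, hold values from which the first probe was listed, and the 2 Dec. pool pairs are too few for a test.

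Formiminotransferase cyclodeaminase takes the formimino group of histidine breakdown onto tetrahydrofolate, and in mammals it is found mainly in liver. The probe A_05_P252304, listed for muscle of large Sept. fish, read -2.07 and 0.42 in Sept. pool pair 1 and -0.92 and -0.63 in pool pair 2. On the Dec. arrays it read -1.42 and 0.84 in pool pair 1 and -1.60 and -0.02 in pool pair 2. The pool pair means were -0.82 and -0.77 in the Sept. lot and -0.29 and -0.81 in the Dec. lot. Both lots were past the thresholds, with -0.80 (SE 0.17, 95% interval -1.25 to -0.35) or 1.74-fold higher in large fish in the Sept. lot, and -0.55 (SE 0.17, 95% interval -0.997 to -0.10) or 1.46-fold higher in large fish in the Dec. lot. No liver value had a part in the study's listing of this probe. The rule for the members names it outright, though, with earlier results of these data known, so its ratios are a description. Its Sept. minus Dec. difference was -0.25 (SE 0.23, 95% interval -0.85 to 0.35).

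These means rest on 2 orientations that disagree. With small fish in Alexa Fluor 647 the probe averaged -1.49 in the Sept. lot and -1.51 in the Dec. lot, and with small fish in Alexa Fluor 555 it averaged -0.10 and 0.41. Over all 8 arrays the difference between the orientations was -1.66, larger in size than in 99.4% of all probes, so the Dec. direction turns when the arrays with small fish in Alexa Fluor 555 are taken alone. Without Dec. pool pair 2 the Dec. mean of -0.29 was not past the thresholds. In the fit of single arrays its Dec. mean of -0.55 was not past them either. By the methods' t-test over 4 arrays neither lot was past the thresholds.

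The other formiminotransferase cyclodeaminase probe (A_05_P413832), listed for muscle of small Dec. fish, showed the opposite dye pattern in liver. It read 0.28 and 0.42 on the Sept. arrays with small fish in Alexa Fluor 647 and -0.51 and -0.22 on those with small fish in Alexa Fluor 555, and on the Dec. arrays 0.61 and 0.13 against -0.69 and -0.11. Averaged over the orientations it was at -0.01 in both lots (SE 0.13 each). A_05_P252304 was lower than this probe in all 4 pool pairs, with a mean difference of -0.66 ± 0.28 (SD, n = 4; exact two-sided sign-flip test, p = 0.125, adjusted 0.188 over the 3 pairs of probes compared). With 4 pool pairs 0.125 is the smallest p the test allows. The members were chosen with earlier results of these data known, so this p is a description. With small fish in Alexa Fluor 555 alone the mean difference was 0.54, of opposite sign. The 2 probes for S-adenosylmethionine synthesis differed by -0.50 ± 0.93 (SD, n = 4), with A_05_P425092 lower in both Sept. pool pairs, on whose values the probes had been listed on opposite sides. In the Dec. lot it was higher in 1 pool pair, by 0.69, and lower in the other, with a difference of -0.32.

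**Figure D2:**
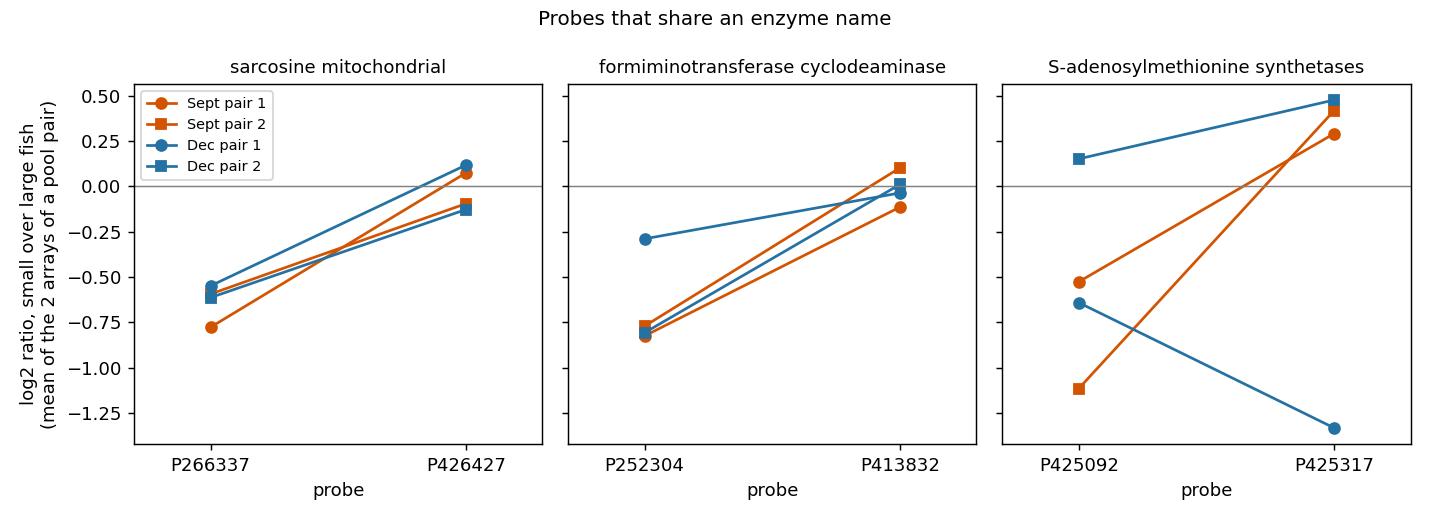
Log2 ratio of small over large fish in each of the 4 pool pairs (mean of the 2 arrays) for the 3 pairs of probes that share an enzyme name or step, with a line joining the values of one pool pair. The sarcosine and formiminotransferase cyclodeaminase pairs differ in the same direction in 4 of 4 pool pairs, with the second probe of each near 0.

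Bifunctional methylenetetrahydrofolate dehydrogenase carries one-carbon groups on folate in mitochondria. Its probe (A_05_P437152), listed for muscle of small Dec. fish, was the only member whose mean was above 0 in the Dec. liver. It read -1.28, 0.21, -0.04 and 0.30 on the Sept. arrays, with a mean of -0.20 (SE 0.46). On the Dec. arrays it read -0.33 and -0.32 in pool pair 1 and 1.11 and 1.80 in pool pair 2, with a mean of 0.56 (SE 0.46, 95% interval -0.64 to 1.76). The Dec. pool pairs again did not overlap, and their distance of 1.78 was greater than that of 98.9% of all probes. Neither lot was past the thresholds.

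The Dec. pool pairs were thus far apart at several enzymes. The median distance between the 2 Dec. pool pairs was 0.65 over the 10 one-carbon probes, against 0.28 over all probes, whereas in the Sept. lot it was 0.18 against 0.19. At 5 of the 10 (S-adenosylmethionine synthase isoform type-2, adenosylhomocysteinase 3, betaine-homocysteine S-methyltransferase, the second sarcosine probe and methylenetetrahydrofolate dehydrogenase) the 4 Dec. arrays split by pool pair without overlap and on either side of 0, as they did at 12.0% of all probes. Betaine-homocysteine S-methyltransferase and the second sarcosine probe were higher in pool pair 1, and the other 3 were higher in pool pair 2. The second sarcosine probe split with values near 0, and its Dec. distance of 0.24 was less than the median of 0.28 over all probes. On the Sept. arrays 1 of the 10, the second sarcosine probe, split in this way, against 10.4% of all probes. This count was chosen after the values were seen. The 4 probes listed from Sept. liver values lay on one side of 0 on every Sept. array, so they could not split there. Listing by a test over those arrays also favors close Sept. pool pairs. The Sept. count and distance are thus not like for like with the Dec. ones. Pool pair 1 and pool pair 2 of a lot come from the same families but from other fish. They also differ in size rank by design. The paper set the largest fish of each family against the second smallest, and the second largest against the smallest. The labels do not say which number holds which ranks.

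**Figure D3:**
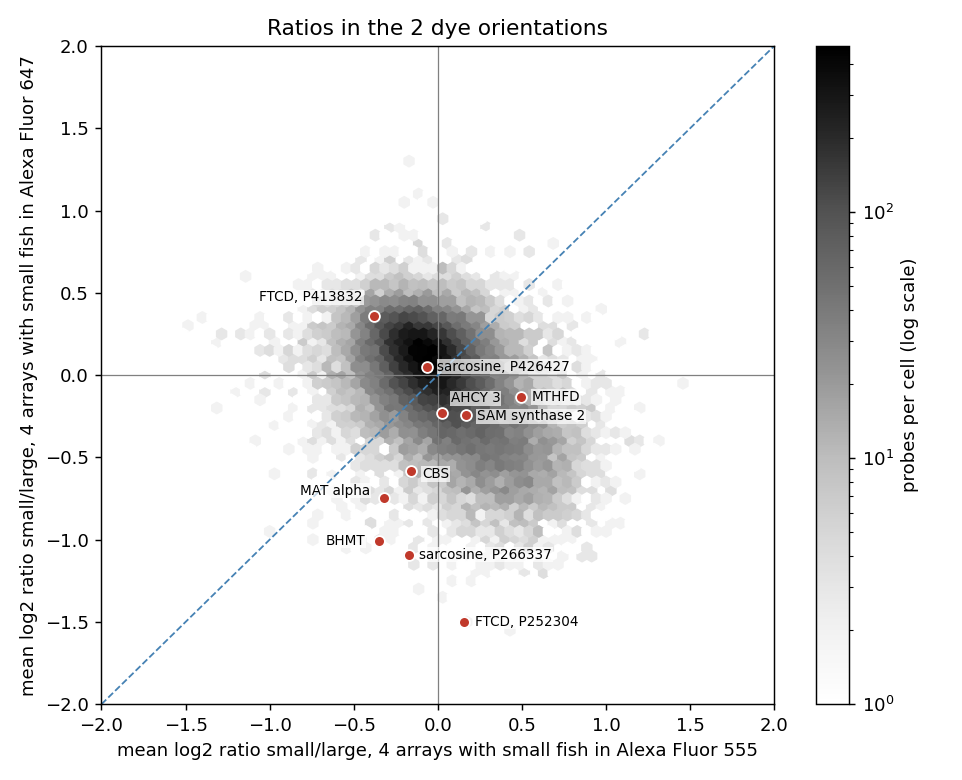
Mean log2 ratio of small over large fish on the 4 arrays with small fish in Alexa Fluor 647 (vertical) against that on the 4 arrays with small fish in Alexa Fluor 555 (horizontal), for the probes with values on all 8 arrays (grey cells, darker with more probes on a log scale) and the 10 one-carbon probes (red points, with shortened names: MAT methionine adenosyltransferase, SAM S-adenosylmethionine, AHCY adenosylhomocysteinase, BHMT betaine-homocysteine methyltransferase, CBS cystathionine beta-synthase, FTCD formiminotransferase cyclodeaminase, MTHFD methylenetetrahydrofolate dehydrogenase). The dashed line marks equal ratios, and FTCD P252304 lies lowest on the vertical axis but at 0.15 on the horizontal axis.

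The plot of the dye orientations shows that 4 of the 10 probes were below 0 in both orientations and lower than -0.5 with small fish in Alexa Fluor 647, as were 1.23% of all probes. This description was chosen after the values were seen, and 3 of the 4 had been listed from the Sept. values among them. They were methionine adenosyltransferase alpha (-0.75 and -0.32, small fish in Alexa Fluor 647 first), betaine-homocysteine S-methyltransferase (-1.01 and -0.35), cystathionine beta-synthase (-0.58 and -0.16) and the first sarcosine probe (-1.09 and -0.17). At each of them the orientation with small fish in Alexa Fluor 647 gave the lower value. The median size of the difference between orientations was 0.53 over the 10 probes and 0.29 over all probes.

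The pattern of the 2 probes past the thresholds in both lots was set against 1400 other named probes with values on all 8 arrays, with Pearson's r as the measure of likeness. The probes most like the first sarcosine probe were beta-1-syntrophin, a membrane scaffold protein (r = 0.972), thrb, a thyroid hormone receptor (r = 0.968), and methionine-R-sulfoxide reductase mitochondrial like, which repairs oxidized methionine (r = 0.967). Those most like A_05_P252304 were eukaryotic translation initiation factor 4 gamma 1 (r = 0.985), dual specificity phosphatase 6 (r = 0.975) and serine hydroxymethyltransferase 2 (r = 0.971). These correlations run over 8 arrays that share pools, and they follow the dye orientation. Over the 4 pool pair means, r to the first sarcosine probe was 0.962, -0.21 and 0.682, and r to A_05_P252304 was 0.766, 0.975 and 0.935.

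A further 4 probes of the pathway lay outside the names of the rule. S-adenosylhomocysteine hydrolase (A_05_P254399), which does the cleavage step of the cycle, was listed for liver of large Sept. fish. It averaged -0.43 (SE 0.16) in the Sept. lot, past the thresholds, and 0.00 (SE 0.16) in the Dec. lot. Its Sept. ratio is a description, as the probe was listed from these values. The array maker's annotation gives this probe another name too. Serine hydroxymethyltransferase 2 (A_05_P305947), which loads folate from serine in mitochondria, averaged -0.35 in the Sept. lot and -0.24 in the Dec. lot (SE 0.16 each). Neither lot was past the thresholds. The mean of both, -0.30 (SE 0.11), was past them, as were 3.59% of all probes in either direction. With small fish in Alexa Fluor 647 it read -0.94 and -0.31 on the Sept. arrays and -0.54 and -0.97 on the Dec. arrays. With small fish in Alexa Fluor 555 it read 0.09 and -0.23, and 0.46 and 0.06. The lower ratio thus came mostly from the arrays with small fish in Alexa Fluor 647. Guanidinoacetate N-methyltransferase, which uses S-adenosylmethionine to make creatine, has 2 probes, at 0.53 (SE 0.22) and 0.22 (SE 0.17) in the Sept. lot and 0.20 (SE 0.22) and -0.11 (SE 0.17) in the Dec. lot, none past the thresholds.

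Of 10 probes for other methyltransferases, 9 could be tested. In the Sept. lot 1 was past the thresholds and higher in small fish, where 2.72% of all probes were past them in either direction. In the Dec. lot 1 was higher and 1 lower, against 4.84% of all probes. All these names come from the study's lists of genes that differed by size in liver or muscle, so the counts are a description. Protein arginine N-methyltransferase 7-like (A_05_P375442), of a family that methylates arginine in proteins, averaged 0.65 (SE 0.24) in the Sept. lot and 0.64 (SE 0.24) in the Dec. lot. Methyltransferase-like protein 21a (A_05_P377727), which methylates lysine in chaperones in human cells, averaged -0.52 (SE 0.26) in the Sept. lot, not past the thresholds, and -0.71 (SE 0.26) in the Dec. lot, past them. Methyltransferase-like protein 4-like (A_05_P459427) averaged -0.47 (SE 0.26) in the Sept. lot and 0.59 (SE 0.26) in the Dec. lot, with a mean of 0.06 over both. Its difference of -1.06 (SE 0.36) was past the thresholds, as were the differences of 3.45% of all probes. The fourth by the mean absolute ratio of the lots, protein arginine N-methyltransferase 5 (A_05_P417412), averaged 0.35 (SE 0.27) and 0.04 (SE 0.27).

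Of 4 probes for methionine aminopeptidases, which trim the first methionine from new proteins, and for methionine sulfoxide reductases, none was past the thresholds in either lot in limma. None of them had an unadjusted p under 0.05 there. Methionine aminopeptidase 1 (A_05_P459832) averaged 0.28 (SE 0.14) in the Sept. lot and -0.29 (SE 0.14) in the Dec. lot. Its Sept. minus Dec. difference of 0.58 (SE 0.19) was past the thresholds, as were the differences of 3.45% of all probes. Peptide methionine sulfoxide reductase (A_05_P450442) averaged -0.06 and -0.32 (SE 0.15 each), methionine-R-sulfoxide reductase mitochondrial like (A_05_P273554) -0.17 and -0.21 (SE 0.16 each), and methionine aminopeptidase 2 (A_05_P453492) 0.07 and -0.08 (SE 0.12 each).

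**Figure D4:**
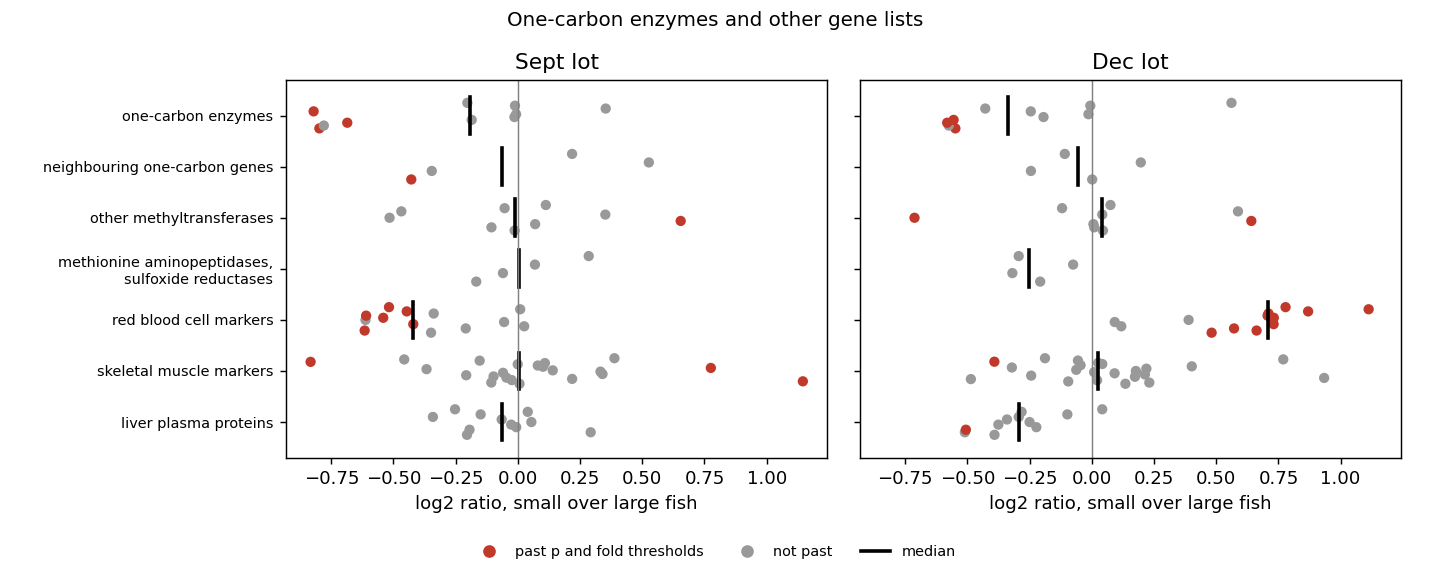
Log2 ratio of small over large fish for each probe of 7 gene lists, with the Sept. lot left and the Dec. lot right. Red points are past the thresholds on p and fold, grey points are not, and black lines are list medians. The median of the one-carbon enzymes is -0.19 in the Sept. lot and -0.34 in the Dec. lot, and that of the red blood cell markers is -0.42 and 0.71.

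The median ratio of the 10 one-carbon probes was -0.19 in the Sept. lot and -0.34 in the Dec. lot, against 0.00 and 0.01 over all probes. Of the 10, 9 were below 0 in the Sept. lot and 9 in the Dec. lot, where 49.7% and 48.1% of all probes were. The Sept. values are a description for the 4 probes listed from them. Of the 6 probes listed from muscle alone, 6 were below 0 in the Sept. lot and 5 in the Dec. lot, with a median of -0.10 in both. The members were chosen with earlier results of these data known, and the rule names A_05_P252304, 1 of these 6, outright. The Dec. and muscle-listed counts are thus a description too. These sign counts rest partly on values near 0. Adenosylhomocysteinase 3, the second sarcosine probe and A_05_P413832 were each at -0.01 in the Sept. lot. The second sarcosine probe and A_05_P413832 were at -0.01 in the Dec. lot too. Markers of other cells were read beside them, and their part in the ratios was not tested. Their lists also draw on names in the study's lists, so their counts past the thresholds are a description. Of all probes tested in the Sept. lot, 1.21% were past them and lower in small fish, and 2.72% in either direction. In the Dec. lot these shares were 2.75% and 4.84%. The 13 red blood cell probes had a median of -0.42 in the Sept. lot (-0.62 to 0.03, 6 past the thresholds and lower in small fish) and of 0.71 in the Dec. lot (0.09 to 1.11, 10 past and higher in small fish). The skeletal muscle list, which also holds other myosins, had a median of 0.00 over 22 probes tested in the Sept. lot (-0.83 to 1.15, 1 past the thresholds and lower, 2 past and higher in small fish) and of 0.03 over 23 probes in the Dec. lot (-0.49 to 0.93, 1 past and lower). The 11 probes for plasma proteins made by the liver had a median of -0.07 in the Sept. lot (-0.34 to 0.29), and of -0.29 in the Dec. lot (-0.51 to 0.04, 1 past the thresholds), close to the median of the one-carbon probes there.

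None of the 10 one-carbon probes was past the thresholds for the Sept. minus Dec. difference, and none had an unadjusted p under 0.05 in limma, where 3.45% of all probes were past the thresholds. The fit of single arrays with terms for dye and shared pools likewise placed none past them. The largest differences were 0.78 (SE 0.59, 95% interval -0.74 to 2.31) at S-adenosylmethionine synthase isoform type-2 and -0.76 (SE 0.62, 95% interval -2.36 to 0.83) at methylenetetrahydrofolate dehydrogenase. At the second sarcosine probe and A_05_P413832 the intervals were narrower, -0.49 to 0.48 and -0.45 to 0.47.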

How the data were processed

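Liver mRNA was hybridized to 8 two-color arrays, 4 per lot. The authors quantified spots in GenePix Pro, flagged poor spots by hand, dropped values with a weak signal ratio and applied lowess normalization in GeneSpring. Log2 ratios are what they deposited, and these were used here without centering. The arrays hold 36754 to 41918 probes with a value (3.86% to 15.7% empty), with medians of -0.03 to 0.11. Single-channel signals were not used here, so the part of signal strength in the spread was not tested. After leaving out 60 control spots, 43603 probes remained.

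Values of a pool pair were averaged over its 2 dye orientations where both were present. The pool pairs, of separate fish, were fitted in limma 3.58.1 (R 4.3.3) with a mean per lot, on 38679 probes in the Sept. lot, 34014 in the Dec. lot and 33291 for both. Adjustment ran over all probes tested. The code was tested on simulated data. The 3 pairs of probes were compared by an exact sign-flip test (Python 3.11.15), and the adjustment ran over all 3. A p-value is given for the formiminotransferase cyclodeaminase pair alone. The other pairs, with probes listed from Sept. liver values, are described without one, though their p-values enter that adjustment.

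The members and lists were chosen with earlier results of these data known. All members are named, with every probe of the pathway list and the 3 named probes most like 2 members. Of each further list up to 4 are named, by the mean absolute ratio of the lots. Names come from the study's lists and from the platform annotation, which names no member. Alternatives varied the dye orientation, centering, filter, fold, test, replicate block and pool pairs. The labels do not give the size ranks behind the pool pair numbers, and the main fit did not pair them across lots.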

Additional observations from a re-analysis of the deposited data

How the results depend on the processing

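Counts of the 10 one-carbon probes past the thresholds are given with the share of all probes past them. A fold change of at least 1.5 left 0 in the Dec. lot (2.01%) and 2 over both lots (0.55%), against 3 and 4. Arrays with small fish in Alexa Fluor 555 gave, taken alone, 1 in the Sept. lot (4.95%), 0 in the Dec. lot (9.13%), 1 over both (12.8%) and 1 for the difference (3.72%). The Sept. lot fitted alone gave 5 (4.17%), and leaving out either Dec. pool pair comes to that same fit for the Sept. lot. The t-test of the methods, run on single arrays, gave 3 in the Sept. lot (A_05_P425092, A_05_P254689 and A_05_P266337, without A_05_P252304; 648 of all probes or 1.68%, 0 after Benjamini-Hochberg) and 0 in the Dec. lot (709 or 2.08%, and 0). Leaving out 1 pool pair gave 2 to 5 in the Sept. lot (3.89% to 5.23%), 3 to 5 in the Dec. lot (3.48% to 11.8%), 3 to 6 over both (2.40% to 10.5%) and 0 to 3 for the difference (1.83% to 10.4%). A pool pair left alone is taken to spread as the other lot does. Without Sept. pool pair 1, A_05_P266337 was not past the thresholds in the Sept. lot, and without Sept. pool pair 2, A_05_P425092 was not. Without Dec. pool pair 2, A_05_P252304 was not past them in the Dec. lot. Over all probes, the Dec. count past the thresholds was 3683 of 35238 without Dec. pool pair 1 and 4374 of 36947 without Dec. pool pair 2, against 1647 of 34014.

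With the number of the pool pair as a replicate block, the counts of one-carbon probes stayed at 3, 3, 4 and 0, while all probes past the thresholds went to 2131 in the Sept. lot, against 1054. The differences between pool pairs 1 and 2 in the Sept. and the Dec. lot correlated at 0.0319. This does not show whether the numbers stand for the same size ranks in both lots. Centering, robust estimation and no filter on missing values kept direction and call of all 30 ratios.

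Turning the sign of the arrays with small fish in Alexa Fluor 555, an alternative chosen after seeing the data, leaves only what differs between the orientations. It gave 0 one-carbon probes in the Sept. lot (9.47% of all probes), 3 in the Dec. lot (20.0%), 5 over both lots (20.2%) and 1 for the difference (5.21%). It turned the ratios of A_05_P425092 (0.17), A_05_P425317 (-0.24), A_05_P426427 (0.029), A_05_P413832 (0.35) in the Sept. lot, A_05_P426427 (0.087), A_05_P413832 (0.39), A_05_P437152 (-0.17) in the Dec. lot and A_05_P426427 (0.058), A_05_P413832 (0.37), A_05_P437152 (-0.31) over both lots.

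The orientation with small fish in Alexa Fluor 555 alone turned A_05_P370477 (0.13), A_05_P437152 (0.25) in the Sept. lot, A_05_P425092 (0.36), A_05_P266337 (0.053), A_05_P252304 (0.41) in the Dec. lot and A_05_P425317 (0.17), A_05_P370477 (0.022), A_05_P252304 (0.15) over both lots, and the difference between the formiminotransferase cyclodeaminase probes (0.54). That with small fish in Alexa Fluor 647 alone turned A_05_P426427 (0.018), A_05_P413832 (0.35) in the Sept. lot, A_05_P426427 (0.081), A_05_P413832 (0.37) in the Dec. lot and A_05_P426427 (0.049), A_05_P413832 (0.36), A_05_P437152 (-0.14) over both lots.

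Leaving out 1 pool pair in turn took these ratios across 0, with the lowest and highest value, A_05_P269379 (-0.45 to 0.077), A_05_P426427 (-0.096 to 0.073), A_05_P413832 (-0.12 to 0.10), A_05_P437152 (-0.53 to 0.13) in the Sept. lot, A_05_P425092 (-0.64 to 0.15), A_05_P425317 (-1.33 to 0.48), A_05_P370477 (-0.67 to 0.28), A_05_P254689 (-2.11 to 0.96), A_05_P426427 (-0.13 to 0.12), A_05_P413832 (-0.037 to 0.0098), A_05_P437152 (-0.33 to 1.45) in the Dec. lot, and A_05_P425317 (-0.49 to 0.41), A_05_P370477 (-0.34 to 0.13), A_05_P254689 (-1.44 to 0.088), A_05_P426427 (-0.070 to 0.052), A_05_P413832 (-0.064 to 0.044), A_05_P437152 (-0.27 to 0.62) over both lots. The causes were not tested.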
